A study of Mus musculus with 10 samples.

Results

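Genes that mark the neural retina were measured by microarray in the lenses of mouse embryos at E13.5. The study compared lenses bred to lose Dicer, the enzyme that releases mature microRNAs from their hairpin precursors, with control lenses. The set is a list of 31 genes of retinal progenitors and newborn retinal neurons. A gene counted as measured where a probe set of the array was annotated to its symbol, and 30 of the 31 were, among 19938 genes in all. Pou4f2, a transcription factor of retinal ganglion cells, had no probe set under its own symbol and was not analysed here. Control embryos had the genotype Le-Cre-/-;DicerloxP/loxP and DicerCN embryos Le-Cre+/-;DicerloxP/loxP, so both groups carried 2 loxP-flanked Dicer alleles and differed in the Le-Cre transgene. Le-Cre is expressed from the P0 promoter of Pax6, so Cre acts in lens and corneal epithelium, which derive from the surface ectoderm, and not in the optic cup, which forms the retina. Each group had 5 arrays, and each array held the RNA of both lenses of 1 embryo. The labels also call the controls wild type, although by genotype they carry the floxed alleles.

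For the targeted gene, Dicer1, the control arrays read 10.23, 10.01, 10.32, 10.07 and 10.20 and the DicerCN arrays 10.37, 10.26, 10.19, 10.20 and 10.45 (log2, in replicate order). The groups overlapped, and DicerCN minus control was 0.13 (SE 0.08, limma adjusted p = 0.472). The sources used here do not say which probes lie in the deleted exons, so this whole-transcript signal does not check the deletion, and DicerCN is used as the label's name.

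At this age the neural retina lies directly behind the lens. Its dividing progenitors express eye-field transcription factors such as Rax, Six6 and Lhx2. Notch signalling between neighbouring progenitors holds most of them back from differentiation, while proneural basic helix-loop-helix factors such as Atoh7 and Neurog2 drive single cells out of the cycle. Retinal ganglion cells are among the first neurons to form, and they switch on Isl1, neuronal RNA-binding proteins, tubulins and neurofilaments as their axons grow. The lens itself is an epithelial tissue that fills with crystallins, and it uses a few of the same genes, Pax6 and Sfrp2 among them.

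By their median standard deviation, though not in every gene, the 30 measured genes varied far more from embryo to embryo than a typical gene. Much of that variation lay within groups. DicerCN replicate 5 had the highest signal of all 10 arrays in 28 of the 30 genes (93.3%), while it was highest in 13.3% of all 19938 genes. The other 2 were Fabp7, highest in control replicate 4, and Ptf1a, highest in DicerCN replicate 2. By limma's moderated test with Benjamini-Hochberg adjustment over all genes, 0 of the 30 genes differed between DicerCN and control lenses at an adjusted p under 0.05, where 6.54% of all genes did (2.56% higher, 3.97% lower). At an unadjusted p under 0.05, 4 of the 30 were higher in DicerCN lenses (Lhx2, Hes6, Otx2 and Gap43) and 0 were lower, where 8.36% and 10.2% of all genes were. The groups overlapped in all 30 genes, while they did not overlap in 7.38% of all genes (2.96% higher, 4.42% lower). The median change was 0.51 on the log2 scale over the 30 genes and −0.0014 over all genes, and 29 of the 30 changes lay above 0. Without DicerCN replicate 5 the median was 0.15, 26 lay above 0, and again 0 of 30 differed, where 5.77% of all genes did (2.52% higher, 3.25% lower). A change is the mean log2 signal of DicerCN lenses minus that of control lenses throughout.

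**Figure D1:**
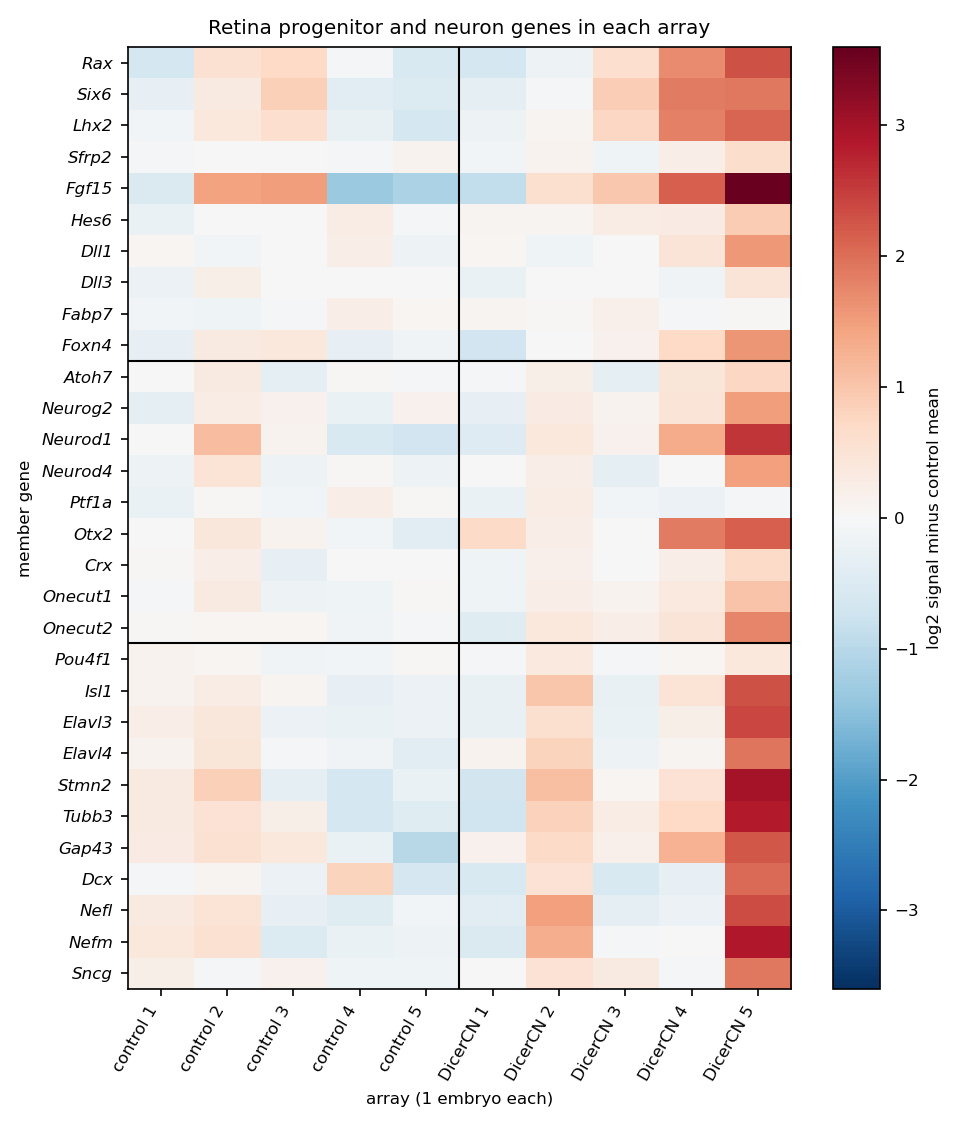
Log2 signal of each of the 30 measured genes (vertical axis) in each of the 10 arrays (horizontal axis), as the difference from the gene's control mean (colour, log2 units), with lines between the 3 groups of genes and between control and DicerCN arrays. DicerCN replicate 5 is the highest array in 28 of the 30 genes. DicerCN replicate 4 comes next in most progenitor genes and DicerCN replicate 2 in most neuron genes.

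The spread shows the same uneven pattern. The median standard deviation (SD, n = 5 in each group) of the 30 genes was 0.29 in control and 0.85 in DicerCN lenses, against 0.13 and 0.17 over all genes. The SD was larger in DicerCN lenses in 29 of the 30 genes (96.7%) and in 64.7% of all genes. Without DicerCN replicate 5 it was larger in 22 of 30 (73.3%) and in 60.8% of all genes, and the median SD of the 30 genes among the 4 DicerCN arrays was 0.41. The mean over the 30 genes, each taken as the difference from its control mean, ran from −0.25 to 0.35 in control arrays and was −0.24, 0.40, 0.09, 0.56 and 1.71 in DicerCN replicates 1 to 5. In an RNA sample from whole lenses, fewer cells of a type and less RNA per cell cannot be told apart.

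Progenitor genes were highest in DicerCN replicates 5 and 4. Their mean difference from control was 1.5 in DicerCN replicate 5, 0.91 in replicate 4 and between −0.28 and 0.37 in the other 3 DicerCN arrays. In controls it was highest in replicates 2 and 3, at 0.30 and 0.40. DicerCN replicate 4 had the second highest signal in 8 of these 10 genes, and it lay above all controls in 8.

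Rax, the homeobox factor without which no eye forms, gave log2 signals, in the order of the replicates, of 6.84, 8.03, 8.19, 7.39 and 6.91 on the control arrays and 6.83, 7.29, 8.08, 9.18 and 9.76 on the DicerCN arrays. DicerCN replicates 4 and 5 were the highest of all, control replicates 2 and 3 were above DicerCN replicates 1 and 2, and the groups overlapped. The change in Rax was 0.76 (SE 0.50, limma adjusted p = 0.473, exact permutation p = 0.294), with a 95% interval from −0.32 to 1.84, and it was 0.38 (SE 0.43, adjusted p = 0.743) without DicerCN replicate 5.

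Six6, a homeobox factor of the optic vesicle, stood at 7.10, 7.73, 8.26, 7.02 and 6.90 in controls and at 7.04, 7.33, 8.30, 9.27 and 9.29 in DicerCN lenses, in replicate order. Here DicerCN replicates 4 and 5 were almost level, and DicerCN replicate 3 was close to control replicate 3. The change in Six6 was 0.84 (SE 0.43, limma adjusted p = 0.332, exact permutation p = 0.151), with a 95% interval from −0.09 to 1.78, and 0.58 (SE 0.42, adjusted p = 0.541) without DicerCN replicate 5.

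Lhx2, a LIM-homeobox factor that keeps the optic cup in its retinal state, had signals of 7.44, 7.92, 8.14, 7.27 and 6.91 in controls and of 7.36, 7.62, 8.29, 9.34 and 9.63 in DicerCN lenses. Its order of arrays was like that of Six6, with DicerCN replicates 4 and 5 above the rest and control replicate 5 lowest. The change in Lhx2 was 0.91 (SE 0.40, limma adjusted p = 0.244, exact permutation p = 0.127), with a 95% interval from 0.04 to 1.79, and 0.62 (SE 0.36, adjusted p = 0.425) without DicerCN replicate 5.

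Fgf15, a secreted growth factor made by retinal progenitors, had the widest range of the set. Its signals were 7.99, 9.96, 10.01, 7.17 and 7.37 in controls and 7.61, 9.08, 9.47, 10.64 and 12.04 in DicerCN lenses. Control replicates 2 and 3 were near 10, far above the other 3 controls and above DicerCN replicates 1 to 3, so the controls alone spread over an SD of 1.39. The change in Fgf15 was 1.27 (SE 0.78, limma adjusted p = 0.435, exact permutation p = 0.254), with a 95% interval from −0.41 to 2.95, and 0.70 (SE 0.69, adjusted p = 0.695) without DicerCN replicate 5.

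Hes6, an antagonist of the Notch effector Hes1 that promotes neuron formation, ran from 7.66 to 8.15 in controls and stood at 8.0, 7.99, 8.17, 8.18 and 8.80 in DicerCN lenses. Its change of 0.34 had the smallest p of the 10 progenitor genes before adjustment, and the adjusted p was 0.234 (exact permutation p = 0.0397). Without DicerCN replicate 5 it was 0.19 (SE 0.10, adjusted p = 0.356). Dll1, a Notch ligand shown by cells that begin to differentiate, lay between 6.17 and 6.60 in controls and at 6.44, 6.20, 6.34, 6.82 and 7.91 in DicerCN lenses, so that replicate 5 alone was more than 1 unit above every other array. Foxn4, a forkhead factor of amacrine and horizontal cell precursors, ran from 7.23 to 7.90 in controls and from 6.84 to 9.11 in DicerCN lenses, with both ends of the whole range in the DicerCN group.

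The remaining 3 progenitor genes varied less. Sfrp2, a secreted Wnt modulator that lens epithelium also makes, stood at 12.47 to 12.66 in controls and 12.39 to 13.18 in DicerCN lenses. Dll3, a Notch pathway protein that acts inside the cell, had a change of 0.0033 (SE 0.12), which turned to −0.11 without DicerCN replicate 5. Fabp7, a fatty acid-binding protein of neural progenitors and glia, lay between 4.55 and 4.96 in all arrays, with a change of 0.07 (SE 0.09).

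The proneural and precursor transcription factors had the same array on top. Their mean difference from control was 1.32 in DicerCN replicate 5, 0.55 in replicate 4 and 0.27 in replicate 2, and it was 0.37 in control replicate 2 and between −0.12 and −0.07 in the other 4 controls. DicerCN replicate 5 was the highest array in 8 of the 9.

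Otx2, a homeobox factor of photoreceptor precursors that the pigment epithelium also expresses, had signals of 5.95, 6.37, 6.10, 5.86 and 5.58 in controls and 6.65, 6.22, 5.96, 7.83 and 8.13 in DicerCN lenses. DicerCN replicates 4 and 5 were far above the rest and replicate 1 was above all controls, while replicates 2 and 3 lay within the control range. The change in Otx2, the one with the smallest p of the 30, was 0.99 (SE 0.37, limma adjusted p = 0.15, exact permutation p = 0.0556), with a 95% interval from 0.19 to 1.78, and 0.69 (SE 0.31, adjusted p = 0.262) without DicerCN replicate 5. Pigment epithelium markers were high in the same 3 arrays (list means of 0.59, 1.09 and 0.79 in DicerCN replicates 1, 4 and 5), and their part in the Otx2 values was not tested.

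Neurod1, a basic helix-loop-helix factor of amacrine and photoreceptor precursors, stood at 4.91, 6.04, 5.04, 4.36 and 4.24 in controls and at 4.46, 5.29, 5.09, 6.26 and 7.49 in DicerCN lenses. Control replicate 2 was above DicerCN replicates 1 to 3, and only DicerCN replicates 4 and 5 were above all controls. The change in Neurod1 was 0.80 (SE 0.50, limma adjusted p = 0.443, exact permutation p = 0.214), with a 95% interval from −0.27 to 1.87. Neurog2, which starts neuron formation in progenitors, ran from 6.24 to 6.86 in controls and stood at 6.29, 6.87, 6.71, 7.04 and 8.09 in DicerCN lenses, where replicate 5 was the only array more than 1 unit above the control mean.

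Atoh7, the factor that retinal ganglion cells need to form, varied little beside these: 8.27, 8.60, 7.95, 8.32 and 8.24 in controls and 8.22, 8.48, 7.91, 8.71 and 9.03 in DicerCN lenses. The highest array was again DicerCN replicate 5, but it lay only 0.32 above the next array, against 1.23 for Neurod1. Onecut2 and Onecut1, cut-homeobox factors of horizontal and ganglion cells, had changes of 0.48 and 0.31, which were 0.16 and 0.13 without DicerCN replicate 5. Neurod4, a basic helix-loop-helix factor of amacrine cells, reached 6.18 in DicerCN replicate 5 and lay between 4.34 and 5.19 in the other arrays. Crx, which drives photoreceptor genes, ran from 4.87 to 5.86 over all arrays. Ptf1a, which directs precursors to the amacrine and horizontal fates, ran from 5.39 to 5.90 and was the only member with a change below 0, at −0.06 (SE 0.11).

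The basic helix-loop-helix members bind E-boxes, short sites whose core letters are CANNTG. The stretches before the members' start sites were searched, on both strands, for the E-box CAGCTG and for the E-box CAGATG. They were also searched for the homeodomain core TAATTA and for the TATA box letters TATAAA. None of the 4 motifs can hold another whole. RefSeq promoter windows (build GRCm38.p6, 250 bases before to 50 after a start) were given for 24 of the 31 genes, in 35 windows, some of which overlap. The other 7 are Rax, Fgf15, Onecut2, Stmn2, Gap43, Nefl and Nefm. CAGCTG was in 28.6% of the members' windows and in 16.4% of all 32544 windows, CAGATG in 22.9% and 17.1%, TAATTA in 17.1% and 5.29%, and TATAAA in 17.1% and 13.6%. Counted by gene, CAGCTG was in 8 of the 24 members and 4916 of all 26742 genes, and CAGATG in 6 and 5138. TAATTA was in 3 and 1640 and TATAAA in 5 and 4180, so the 6 member windows with TAATTA came from 3 genes. These are matches of letters and not measured sites, and a link between them and the array values was not tested. Shown are the 200 bases before the first listed start of 2 progenitor members and 2 neuron members, on the gene's strand from 5′ to 3′, to set one window with an E-box beside one without it (Hes6 and Six6), and 2 neuron genes that both hold CAGCTG (Isl1 and Elavl3). Capitals mark matches to the 4 motifs. Hes6 lies at chr1:91414039-91414238, minus strand, Six6 at chr12:72939682-72939881, plus strand, Isl1 at chr13:116309689-116309888, minus strand and Elavl3 at chr9:22052024-22052223, minus strand.
Hes6: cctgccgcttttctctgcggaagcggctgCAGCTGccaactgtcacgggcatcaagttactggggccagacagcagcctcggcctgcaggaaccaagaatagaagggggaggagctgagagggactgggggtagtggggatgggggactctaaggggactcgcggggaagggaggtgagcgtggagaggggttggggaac
Six6: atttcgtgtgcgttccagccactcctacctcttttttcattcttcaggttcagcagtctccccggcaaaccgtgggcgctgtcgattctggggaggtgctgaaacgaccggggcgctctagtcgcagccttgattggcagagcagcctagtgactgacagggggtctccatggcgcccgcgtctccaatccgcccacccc
Isl1: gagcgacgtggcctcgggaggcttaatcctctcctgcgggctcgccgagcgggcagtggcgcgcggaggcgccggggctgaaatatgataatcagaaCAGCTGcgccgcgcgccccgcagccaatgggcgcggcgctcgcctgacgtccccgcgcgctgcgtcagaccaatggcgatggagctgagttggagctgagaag
Elavl3: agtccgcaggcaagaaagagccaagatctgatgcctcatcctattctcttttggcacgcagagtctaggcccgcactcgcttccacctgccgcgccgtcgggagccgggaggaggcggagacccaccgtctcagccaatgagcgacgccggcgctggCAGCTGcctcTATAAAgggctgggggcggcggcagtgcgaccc

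Ganglion cell and neuron genes stood out most in DicerCN replicate 5, where 10 of the 11 measured were more than 1 unit above their control mean. Their mean difference from control was 2.21 there, 0.83 in DicerCN replicate 2, 0.26 in replicate 4 and −0.29 and −0.08 in replicates 1 and 3. DicerCN replicate 5 was the highest array in all 11 genes and DicerCN replicate 2 the second highest in 9. DicerCN replicate 4, second in 8 of 10 progenitor genes, was second in 1 of these 11, Gap43.

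**Figure D2:**
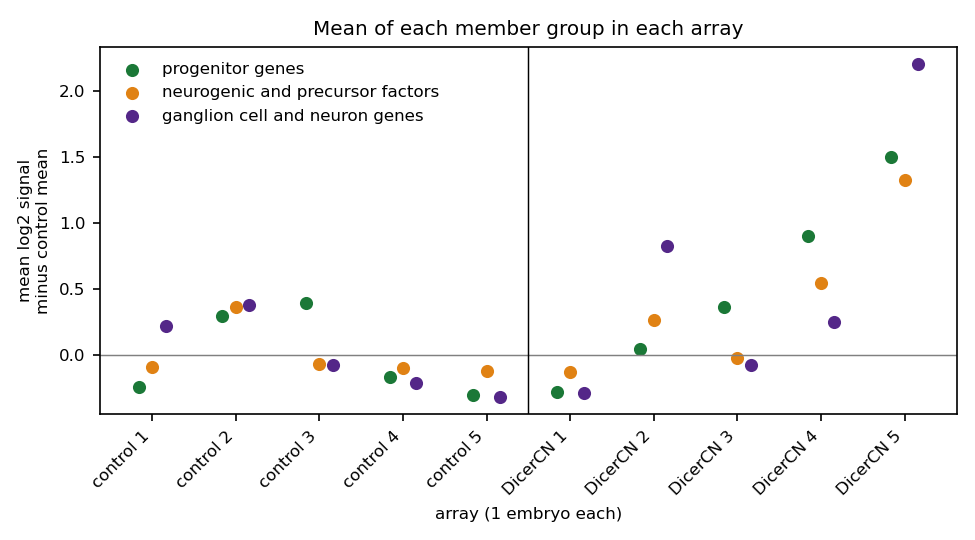
Mean over the 10 progenitor genes, the 9 neurogenic and precursor factors and the 11 ganglion cell and neuron genes (vertical axis, log2 signal minus control mean) in each array (horizontal axis), 1 point for each group and array. The neuron genes stand at 2.21 in DicerCN replicate 5 and at 0.83 in replicate 2, and the progenitor genes at 1.5 and 0.05.

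Nefm and Nefl, the medium and light neurofilament subunits of axons, shared 1 pattern. Nefm had signals of 5.87, 6.04, 5.02, 5.27 and 5.32 in controls and 4.97, 6.82, 5.44, 5.48 and 8.40 in DicerCN lenses. Nefl had 5.49, 5.66, 4.89, 4.76 and 5.09 in controls and 4.79, 6.65, 4.84, 4.95 and 7.52 in DicerCN lenses. In both, DicerCN replicates 5 and 2 were above all controls while DicerCN replicates 1, 3 and 4 lay within or below the control range. The change in Nefm was 0.72 (SE 0.52, limma adjusted p = 0.532, exact permutation p = 0.333), with a 95% interval from −0.42 to 1.85, and 0.17 (SE 0.32, adjusted p = 0.863) without DicerCN replicate 5. That in Nefl was 0.57 (SE 0.47, adjusted p = 0.593 by limma), and 0.13 (SE 0.34, adjusted p = 0.908) without it.

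Stmn2, a microtubule regulator of axon growth, stood at 6.11, 6.64, 5.45, 5.15 and 5.53 in controls and 5.11, 6.87, 5.86, 6.28 and 8.78 in DicerCN lenses. Tubb3, the neuron-specific beta tubulin, stood at 7.13, 7.32, 7.0, 6.16 and 6.35 in controls and 6.07, 7.62, 7.05, 7.52 and 9.66 in DicerCN lenses. For both genes DicerCN replicate 1 was the lowest of the 10 arrays and DicerCN replicate 5 the highest, 1.92 and 2.04 above the next array. The change in Stmn2 was 0.80 (SE 0.54, limma adjusted p = 0.49, exact permutation p = 0.302), with a 95% interval from −0.37 to 1.98. That in Tubb3 was 0.79 (SE 0.50, limma adjusted p = 0.458, exact permutation p = 0.238), with a 95% interval from −0.30 to 1.88. Without DicerCN replicate 5 they were 0.25 and 0.27.

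Elavl3, a neuronal RNA-binding protein of the Hu family, lay between 6.44 and 7.11 in controls and at 6.43, 7.27, 6.46, 6.91 and 9.09 in DicerCN lenses. Its relative Elavl4 lay between 5.46 and 6.30 and at 5.99, 6.65, 5.67, 5.97 and 7.78. DicerCN replicate 5 was thus 6.07-fold and 3.51-fold above the median of the other 9 arrays. Isl1, a LIM-homeobox factor of ganglion cells, had signals of 5.95, 6.10, 5.94, 5.55 and 5.63 in controls and 5.57, 6.83, 5.56, 6.34 and 8.14 in DicerCN lenses, with replicates 5, 2 and 4 above all controls. The changes in Elavl3, Elavl4 and Isl1 were 0.54, 0.56 and 0.65, and 0.07, 0.21 and 0.24 without DicerCN replicate 5.

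Gap43, a protein of axonal growth cones, had the smallest p of the neuron genes. Its signals were 7.71, 7.96, 7.79, 7.17 and 6.41 in controls and 7.58, 8.10, 7.59, 8.66 and 9.65 in DicerCN lenses, and control replicate 5 was more than 1 unit below control replicates 1, 2 and 3. The change in Gap43 was 0.91 (SE 0.39, limma adjusted p = 0.222, exact permutation p = 0.103), with a 95% interval from 0.07 to 1.75, and 0.57 (SE 0.31, adjusted p = 0.373) without DicerCN replicate 5. Dcx, doublecortin, a microtubule protein of migrating young neurons, stood at 5.57, 5.73, 5.42, 6.44 and 5.04 in controls and 5.10, 6.16, 5.08, 5.33 and 7.68 in DicerCN lenses. Dcx was the one neuron gene in which control replicate 4 came second, and its change went from 0.23 to −0.22 when DicerCN replicate 5 was left out. Sncg, gamma-synuclein of ganglion cells, reached 9.44 in DicerCN replicate 5 against 7.51 to 8.05 in the other DicerCN lenses and 7.38 to 7.76 in controls. Pou4f1, a POU factor of ganglion cells and sensory neurons, ran only from 5.14 to 5.64, with a change of 0.14 (SE 0.10).

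**Figure D3:**
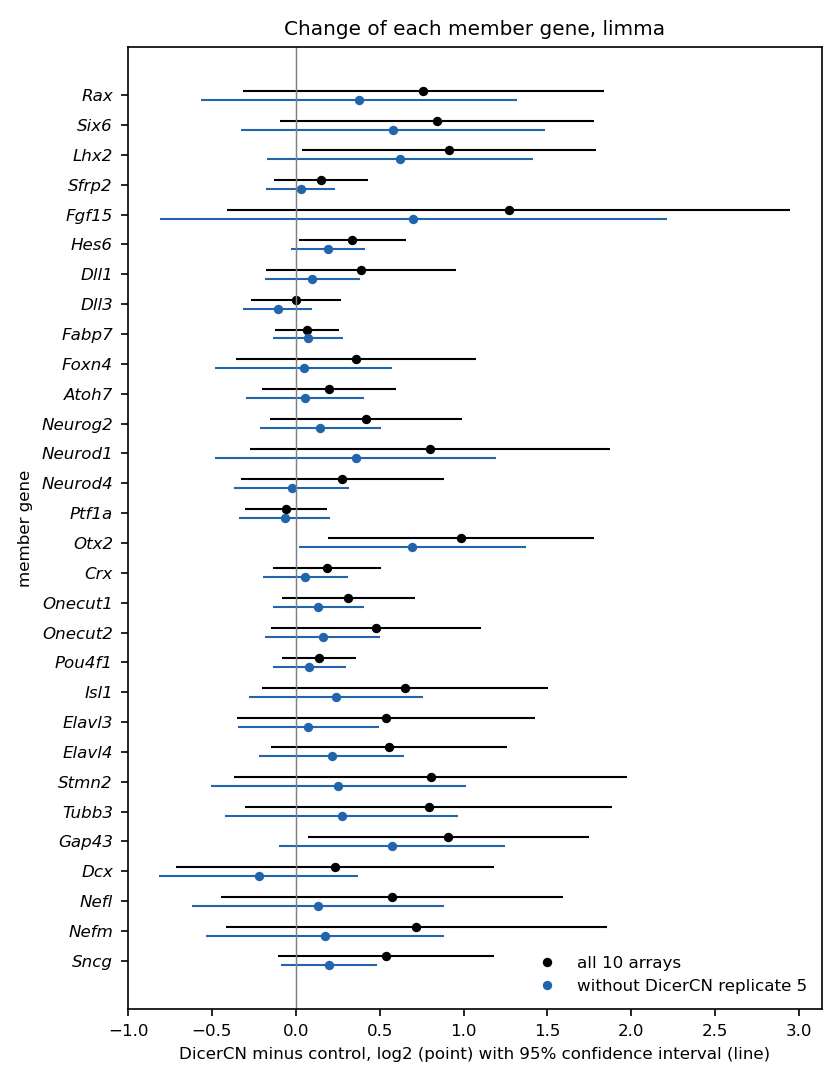
Change of each of the 30 genes (vertical axis), DicerCN minus control in log2 units (horizontal axis), as limma's estimate (points) with its 95% confidence interval (lines), over all 10 arrays (black) and without DicerCN replicate 5 (blue). Intervals over all 10 arrays lie wholly above 0 in 4 genes, before adjustment, and without DicerCN replicate 5 in Otx2 alone.

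DicerCN replicates 4 and 2 differed in which members were highest. In replicate 4 the largest differences from the control mean were those of Fgf15 (2.14), Six6 (1.86), Otx2 (1.86), Lhx2 (1.81) and Rax (1.71). Neurod1 (1.35) and the neuron gene Gap43 (1.26) came next there, and both were lower in replicate 2 (0.38 and 0.69). The other neuron genes ran in replicate 4 from Tubb3 at 0.73 to Dcx at −0.31, with Nefl at −0.22. In replicate 2 the largest were those of neuron genes: Nefl stood at 1.47, Nefm at 1.32 and Stmn2 at 1.09. Of the 5 genes leading in replicate 4, Fgf15 stood at 0.58 in replicate 2, level with Elavl3 at 0.57, while Otx2 stood at 0.25, Lhx2 at 0.09, Six6 at −0.07 and Rax at −0.18. Each is 1 array, so this contrast is a description with no test. Without DicerCN replicates 4 and 5, an alternative chosen after the values were seen, the median change over the 30 genes was 0.074, 20 lay above 0 and 10 below, and 0 of 30 differed, where 4.36% of all genes did (2.11% higher, 2.26% lower).

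**Figure D4:**
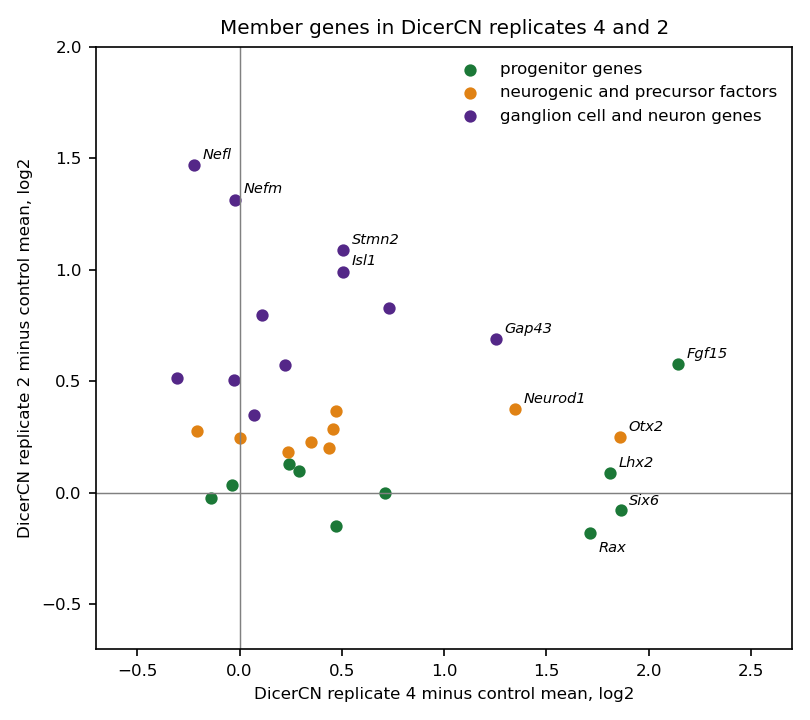
Each of the 30 genes by its log2 signal in DicerCN replicate 4 (horizontal axis) and DicerCN replicate 2 (vertical axis), both minus the control mean, coloured by group, with the genes above 0.85 on either axis named. Fgf15, Six6, Otx2, Lhx2, Rax, Neurod1 and the neuron gene Gap43 lie farthest to the right. Nefl, Nefm and Stmn2 lie farthest up, and the progenitor genes Dll3 and Fabp7 stay near 0 on both axes.

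The wider lists of retina genes, which hold no members, were on average highest in DicerCN replicate 5 as well. Like the members, they were chosen with earlier results of these data known, so they are not independent support. Of 23 other progenitor genes 2 rose and 0 fell, and 20 of the changes lay above 0 (median 0.38, and 0.25 without DicerCN replicate 5), with 8 higher and 1 lower at an unadjusted p under 0.05. Over all genes, 2.56% rose and 3.97% fell, and 8.36% were higher and 10.2% lower at an unadjusted p under 0.05. DicerCN replicate 5 was the highest array in 11 of the 23 (47.8%, against 13.3% of all genes) and the lowest in 1, and a control was highest in 3. Ccnd1, cyclin D1, rose by 0.84 (SE 0.12, limma adjusted p = 0.00136, exact permutation p = 0.00794, the smallest possible) and by 0.74 without DicerCN replicate 5. Without DicerCN replicates 4 and 5 the rise in Ccnd1 was still 0.73 (limma adjusted p = 0.00585), while the median change over the 30 members was 0.074. Which cells gave the Ccnd1 signal was not tested. Foxd1, a forkhead factor of the temporal retina and of periocular mesenchyme, rose by 0.996 (SE 0.27, adjusted p = 0.0468, exact permutation p = 0.00794), with all 5 DicerCN arrays above all controls. Its call was lost without any 1 of the 5 controls or without DicerCN replicate 2, 3 or 4 (adjusted p = 0.0612 to 0.103), and by quantile normalization (0.0503) or an intensity trend (0.0866), and held without DicerCN replicate 5 (adjusted p = 0.00597). Sox2 and Hes1 stood at 0.38 and 0.56 and did not pass (adjusted p = 0.0801 and 0.0957). Sox2 did pass with a replicate block (0.0334), without control replicate 1 (0.0433) and without DicerCN replicate 3 (0.0437), and Hes1 with array weights (0.0431) and without DicerCN replicate 2 (0.0262). Aldh1a1, a retinaldehyde dehydrogenase with the highest mean signal of the list, stood at −0.34. Of 41 other retina neuron genes 0 rose and 0 fell in limma, 8 higher and 1 lower at an unadjusted p under 0.05. Their median change was 0.27, and 0.047 without DicerCN replicate 5, which was the highest array in 34 of the 41.

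Within the Notch pathway, 1 of 16 genes rose and 0 fell, where 2.56% and 3.97% of all genes did. Lfng, a glycosyltransferase that tunes Notch receptors, rose by 0.40 (SE 0.09, adjusted p = 0.0243). It was not highest in the arrays that lead the retina genes: DicerCN replicate 5 had the lowest Lfng signal of its group at 9.38, inside the control range of 9.15 to 9.39, and the change was 0.47 without it (adjusted p = 0.00597). Leaving out control replicate 1, 2 or 3, or DicerCN replicate 2 or 4, ended the Lfng call (adjusted p = 0.0519 to 0.0641), as did a replicate block (0.0569). Hey1, a target of Notch, stood at 0.35 (adjusted p = 0.10). It passed without DicerCN replicate 5 (0.42, adjusted p = 0.0398) and with array weights (adjusted p = 0.0487). Numb, which restrains Notch, stood at 0.31, and the ligand Jag1, highest in mean signal, at 0.15. Neither passed over all arrays, and Numb did pass after quantile normalization (limma adjusted p = 0.0481).

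The tissue label was checked against lens markers, and the arrays were set beside markers of tissues next to the lens. Lens markers were high in all arrays (mean of 15 markers 12.17 to 12.29 in controls and 11.75 to 12.35 in DicerCN lenses), with Cryaa between 14.33 and 14.46. Their mean difference from control was −0.48 in DicerCN replicate 5, −0.26 in replicate 4 and −0.20 in replicate 2, against 0.03 and 0.12 in replicates 1 and 3. The 3 arrays with the highest mean over the 30 genes thus had the lowest lens markers. Control replicate 2 was nearly level with DicerCN replicate 2 in that mean (0.35 and 0.40), and its lens markers stood at 0.03. Of the 15 lens markers 0 passed the test (0 higher and 4 lower unadjusted). Among all genes 2.56% passed as higher and 3.97% as lower, and 8.36% and 10.2% were so at an unadjusted p under 0.05. The mean of 13 pigment epithelium markers was 0.59, −0.16, 0.05, 1.09 and 0.79 in DicerCN replicates 1 to 5 and −0.15 to 0.11 in controls, and 0 of the 13 passed limma's test (6 higher and 1 lower at an unadjusted p under 0.05). Pmel, Tyrp1 and Dct, pigment genes among them, stood at 1.47, 1.09 and 1.37. The parts of pigment epithelium and of lens markers in the retina values were not tested.

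Regional markers of brain and spinal cord (11 genes, means of −0.17 to 0.18 in controls and −0.06 to 0.02 in DicerCN lenses) and markers of peripheral neurons and neural crest (5 measured of 9, −0.06 to 0.05 and −0.05 to 0.18) varied little. Of these 16 genes 0 differed in limma, and 0 had an unadjusted p under 0.05. For this and the counts below, 2.56% of all genes were called higher and 3.97% lower. At an unadjusted p under 0.05 these shares were 8.36% and 10.2%. Striated muscle markers were high in control replicate 4 (2.55, against −0.83 to −0.45 in the other 9 arrays, with 0 of 12 called and 0 at an unadjusted p under 0.05), and periocular mesenchyme markers in control replicate 4 and DicerCN replicate 3 (1.03 and 0.94). Of 12 mesenchyme markers 1 fell, Pdgfra, a growth factor receptor that lens epithelium also makes, by 0.58 (adjusted p = 0.0423). That call was lost when any control, DicerCN replicate 3 or DicerCN replicate 5 was left out (0.0505 to 0.108). Of 15 macrophage markers 2 rose, Csf1r by 0.86 and Cx3cr1 by 0.73, and 7 did so without DicerCN replicate 5, where 2.52% of all genes did. Over all arrays 11 of the 15 were higher and 0 lower at an unadjusted p under 0.05, and 14 of the changes lay above 0. Macrophage scores were 0.19 to 0.95 for DicerCN replicates 1, 3, 4 and 5 and 0.17 for replicate 2, so that the 2 arrays with the highest neuron genes had the lowest values of the group. Of 8 endothelium, 5 erythroid and 11 surface ectoderm markers, 0 differed in limma over all arrays (1, 2 and 2 higher and 0 lower at an unadjusted p under 0.05), and 1 endothelium marker did without DicerCN replicate 5. The part of any of these lists in the retina values was not tested.

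**Figure D5:**
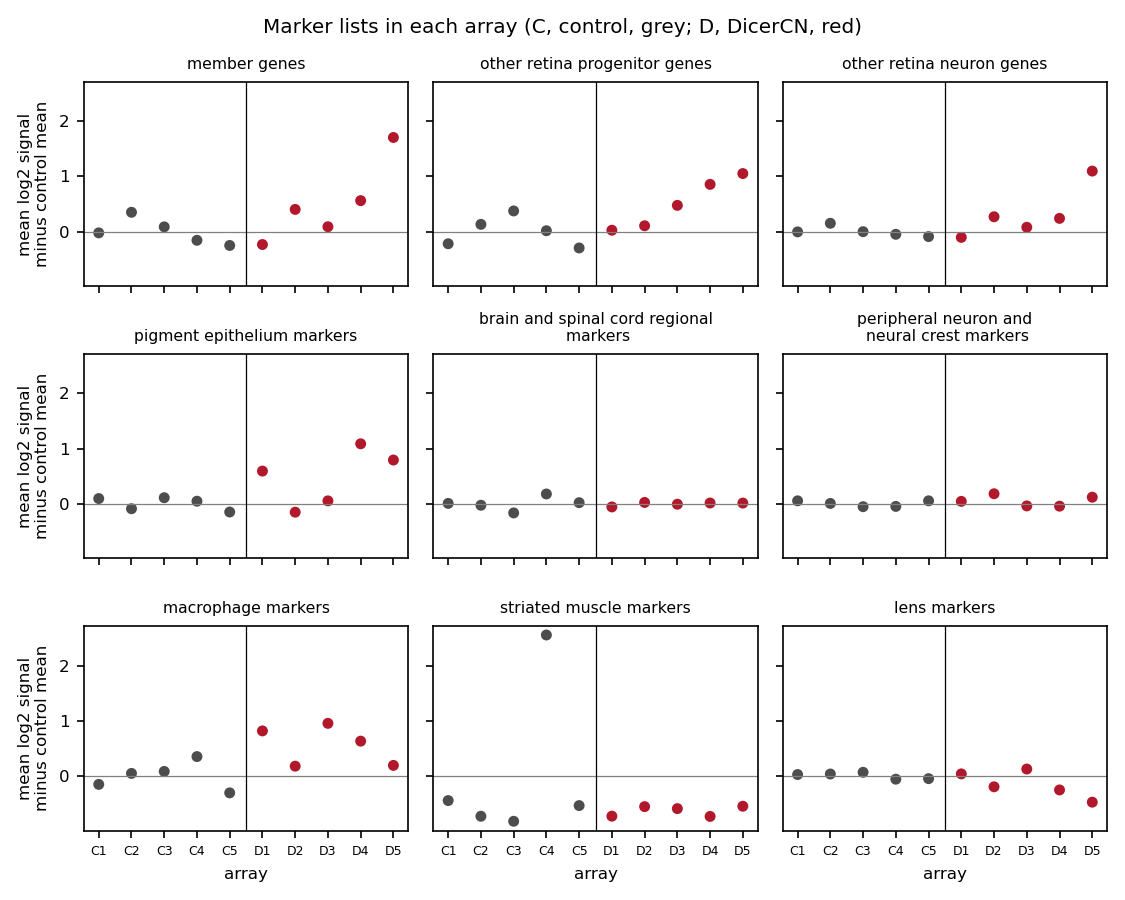
Mean log2 signal minus the control mean (vertical axis) of the 30 genes and of 8 marker lists in each array (horizontal axis; C, control, grey; D, DicerCN, red). The 30 genes and both lists of other retina genes are highest in DicerCN replicate 5, pigment epithelium markers are high in DicerCN replicates 1, 4 and 5, and the brain, spinal cord and peripheral neuron lists stay between −0.17 and 0.18.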

How the data were processed

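RNA of both lenses of an embryo (100 ng in total) went on 1 Affymetrix whole-transcript array, as the labels' protocols state. GCOS is the software named in the submitters' processing notes. The deposited values are taken as log2 signals from their range (1.91 to 15.2). The array medians are near equal (6.54 to 6.56), and the authors' method of summary and normalization was not given in the sources used here, so a change of total RNA cannot be seen. No pair of arrays was identical (correlations 0.977 to 0.990). Precision is limited by how many arrays there are, since arrays hold no counts.

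Of 35557 probe sets, 21789 had 1 gene symbol in the platform annotation, 1621 several and 12147 none, and only the first were used. The probe set with the highest mean stood for a gene. All members had 1 probe set. Tests between groups used lmFit and eBayes of limma (version 3.58.1, under R 4.3.3), 2-sided, with Benjamini-Hochberg adjustment over 19938 genes, and single values by exact 2-sided permutation over 252 partings of the arrays. The fit was tested on simulated data. Alternatives were quantile normalization, a filter that leaves out the lowest 25% of genes by mean signal (25 of 30 members pass), the mean of probe sets, array weights, an intensity trend with robust estimation, the replicate number as a block, and arrays left out.

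Members and lists were chosen with earlier results of these data known. Named are all members, from each other retina and Notch list up to 4 genes by smallest p and the gene of highest mean signal, and from the remaining lists a few by the same rule. The lists are other retina progenitor and neuron genes, Notch pathway, and markers of pigment epithelium, periocular mesenchyme, surface ectoderm, striated muscle, macrophages, endothelium, erythroid cells, peripheral neurons and neural crest, brain and spinal cord, and lens.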

Additional observations from a re-analysis of the deposited data

Results flagged for a closer look

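In 148 groups of 5 arrays (2 for each named gene and list mean), 9 had an array far from the other 4 by Dixon's ratio, and chance alone gives about 1 in 20. DicerCN replicate 5 stood apart in 2 members: Hes6 at 8.80 (next highest of its group 8.18) and Sncg at 9.44 (next 8.05). It also stood apart in Ccnd1 at 12.08 (next 11.65), Foxd1 at 8.60 (next 7.21) and Crmp1, a neuronal semaphorin signalling protein, at 9.07 (next 7.29). Among controls, replicate 2 stood apart in the mean of the proneural and precursor factors at 0.37 (next −0.067), and replicate 5 was low in Dpysl3, a growth cone protein, at 6.87 (next 7.71). Control replicate 4 stood apart in the marker means of striated muscle, at 2.55 (next −0.45), and periocular mesenchyme, at 1.03 (next −0.12).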

How the results depend on the processing

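Under all 18 alternatives 0 of the 30 members differed, also with the replicate block, and their lowest adjusted p was 0.0608 (Otx2 without DicerCN replicate 3). Signs changed, never with a call, in 9 members without DicerCN replicates 4 and 5, in 4 without control replicate 4 and DicerCN replicate 5, in 3 without DicerCN replicate 5 and in 1 after quantile normalization and without control replicate 1 or 4. Over all genes, 511 were higher and 792 lower in DicerCN lenses, with 303 to 503 and 481 to 840 when 1 array was left out. The fewest were without control replicate 1, and without control replicate 2 325 were higher and without control replicate 3 504 lower. Without DicerCN replicates 4 and 5, 450 were lower. The cause was not tested, though fewer arrays were fitted. Of the other progenitor genes, 2 of which rose over all arrays, 1 rose after quantile normalization, 1 with an intensity trend, 3 with array weights, 3 with the replicate block and 1 to 2 when 1 array was left out. Of the other neuron genes 1 rose with array weights, 1 with the replicate block and 0 to 1 when 1 array was left out, in each case Rbpms. Arrays of the same replicate number did not deviate together (correlations −0.088 to 0.190 over genes, 1 of 5 above 0.1), so the number was not taken as a pairing; with the replicate block 471 genes were higher and 629 lower. Fabp7, Neurod1, Neurod4, Crx and Pou4f1 are in the lowest 25% of genes by mean signal, which limits what their values can show.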

Other observations

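Ranked by how far DicerCN replicate 5 lay above the median of the other 9 arrays, 10 of the 30 members were among the first 25 of 19938 genes and 19 among the first 100. The members were chosen with earlier results of these data known, so these ranks are a description and not a test. Fgf15, Nefm and Stmn2 were the 3 highest members (ranks 3, 4 and 5, at 7.81-fold, 7.75-fold and 7.59-fold). Ina, the neuronal intermediate filament alpha-internexin, Aldh1a3, a retinaldehyde dehydrogenase of retina and pigment epithelium, and Rorb, a nuclear receptor of retinal precursors, stood at ranks 2, 6 and 7. In DicerCN replicate 4 the same ranking put the pigment genes Dct, Pmel and Tyr at ranks 4, 7 and 8 and Six6, Rax, Otx2 and Lhx2 at ranks 18, 22, 27 and 30. In DicerCN replicate 2 it put Nefl at rank 4, Nefm at 9 and Stmn2 at 24, and Rax at 19829. Genes in none of the lists also ranked high, such as Afp and Alb at ranks 2 and 3 in DicerCN replicate 2. Lcn2 and Ngp were at ranks 13 and 18 in DicerCN replicate 5, but they were not particular to it. Both were highest in DicerCN replicate 3 (8.91 and 8.04, against 7.80 and 6.87 in replicate 5). In DicerCN replicate 1 they stood at 6.96 and 7.11, also above all controls. The genes named here that are not members, Ina and Aldh1a3 of the wider lists among them, were chosen after their values were seen.

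Xist, the RNA that coats the inactive X chromosome of female cells, was at 11.1 to 11.4 in control replicates 2 and 3 and DicerCN replicates 1, 2 and 5 and at 4.07 to 4.96 in the other 5 arrays, and the Y-linked Eif2s3y ran the other way. In controls the progenitor members Rax, Lhx2 and Fgf15 were highest in replicates 2 and 3, both with high Xist. In DicerCN lenses they were lowest in replicate 1, which has high Xist, high in replicate 4, which does not, and highest of all arrays in replicate 5, which has high Xist (11.41). The part of sex in these values was not tested.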
